A study of Mus musculus with 13 samples.

Results

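The comparison set all 11 mammary tumors of the series against its 2 cancer-free mammary glands, which together are the 13 libraries of the series, and asked which genes lie outside both glands in every tumor. All mice were females of an FVB/N-TgN strain, 202Mul/J, with the transgene labelled MMTV-HER2/neu, so tumors and glands alike came from mice with the same transgene. MMTV is the mouse mammary tumor virus, whose promoter limits the rat HER2/Neu gene mainly to mammary epithelial cells. The genotype field of every sample read "Wild type". The tumors, each an individual spontaneous tumor, were 3 primary untreated tumors, 3 primary tumors of mice drinking the reverse transcriptase inhibitor stavudine at 1 mg/mL, 3 recurrent tumors that had regrown after a complete response to the HSP90 inhibitor 17-DMAG at 20 mg/kg, and 2 recurrent tumors from mice given both agents. Both glands came from untreated mice. The labels gave neither the age of the mice nor the reproductive state of the 2 gland donors, and nothing tied same-numbered samples to one another.

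HER2/Neu, encoded in the mouse by Erbb2, is a receptor tyrosine kinase that signals through RAS and the MAPK cascade, and the mammary epithelium it transforms in this model is of luminal type. A mammary gland holds that luminal epithelium, a surrounding layer of contractile myoepithelial cells, a large fat pad of adipocytes, vessels, fibroblasts and leukocytes, and often an embedded lymph node. Its secretory cells make milk proteins and milk fat in pregnancy and lactation. In bulk RNA of such tissue, fewer cells of a type and less RNA per cell cannot be told apart.

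Library totals ran from 39921388 to 56887708 counts. Levels below are CPM, the read counts of a gene per 1e+06 counts of its library, after TMM scaling, which set a factor of 0.493 for gland 2 and 0.999 to 1.12 for the other libraries, and 3 counts equalled 0.0587 to 0.107 CPM. The glands differed from each other before any tumor was considered: the 12 milk protein genes took 3.46% of the counts of gland 1 and 39.4% of those of gland 2, against 0.829% to 2.85% in the tumors, and T cell marker genes summed to 344 CPM in gland 1 and 19.6 CPM in gland 2. Among the tumors, recurrent 17-DMAG replicate 1 stood apart, with the highest summed CPM of the fibroblast and matrix list (11317, median of the tumors 1935), and primary untreated replicate 1, recurrent 17-DMAG replicate 3 and recurrent 17-DMAG plus stavudine replicate 2 carried skeletal muscle RNA, at 0.479%, 0.169% and 0.637% of their counts. Every library held the markers of mammary epithelium, since the 12 pan-luminal genes summed to 2301 and 2155 CPM in the glands and 2047 to 3695 CPM in the tumors.

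Most genes called between tumors and glands were lower in tumors. Of 17135 genes tested, edgeR's quasi-likelihood test called 1919 (11.2%) at an adjusted p under 0.05, with 310 (1.81%) higher and 1609 (9.39%) lower in tumors. Every tumor lay above both glands for 709 genes (4.14%) and below both for 1262 (7.37%). The counts given below for gene lists are to be read against these shares. When a call, separation of every tumor from both glands and agreement of the glands within 2-fold were all required, 186 genes (1.09%) stood above and 539 (3.15%) below, and these 725 genes made up 37.8% of the calls. The labels do not say whether samples of a group came from separate mice, so the p-values measure only the spread between these samples. The rises were small: the median fold was 1.66 above against 3.65 below, the nearest tumor was more than 2-fold from the nearest gland for 4 genes above and 158 below, and more than 4-fold for 0 and 38.

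The size of this list depended on single libraries. The 1919 calls became 564 without gland 2, 4333 without gland 1, 3253 without recurrent 17-DMAG replicate 1, 1277 when primary stavudine replicate 3 was dropped and 1259 when primary untreated replicate 3 was, and 168 genes, 8 higher and 160 lower, were called in all 13 fits that left out 1 library. The split of calls also moved with the method, from 310 higher and 1609 lower to 1188 and 2238 by DESeq2, 82 and 1499 with libraries scaled to the pan-luminal genes, and 11 and 514 with library totals alone, a setting that moved the median of all log2 fold changes by 0.39. Of the 86 called genes that the naming rule and the gene lists put forward, 21 kept their call in all 13 fits, and a gene of these is called stable below. Without gland 1, 73 of the 86 were called, and without gland 2, 27.

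**Figure D1:**
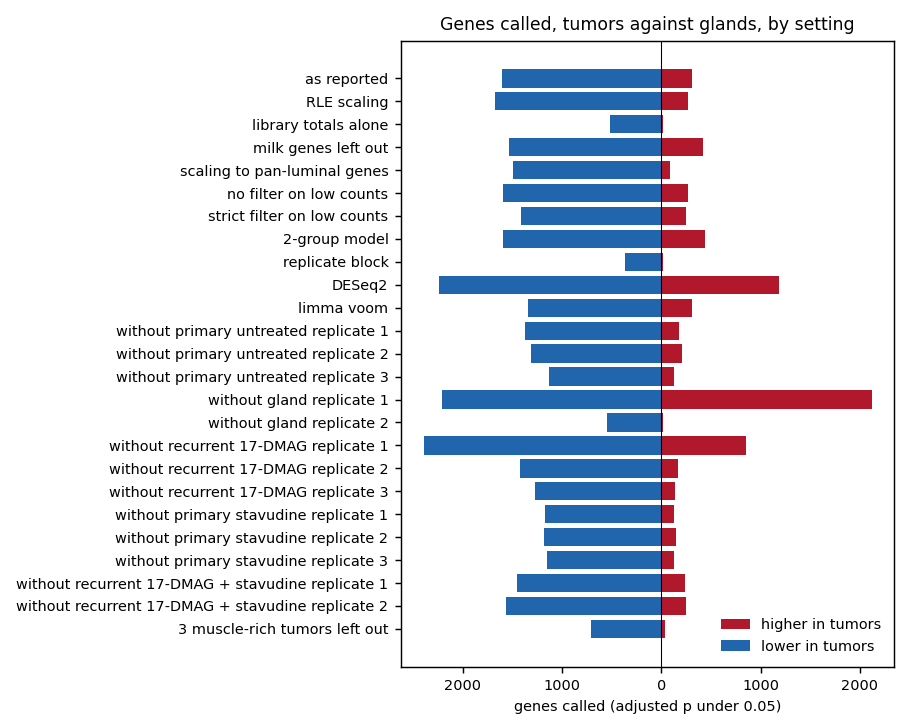
Number of genes called higher (bars to the right) and lower (bars to the left) in tumors than in glands at an adjusted p under 0.05, for the reported fit and for each other setting. The reported 310 and 1609 calls turn into 14 and 550 without gland 2 and into 2122 and 2211 without gland 1.

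Genes of fat tissue were low in every tumor, and the 2 glands agreed within 2-fold on 13 of the 14 genes listed for adipocytes. Of these 14 genes 13 fell and none rose, where 9.39% and 1.81% of all genes tested did. Their median log2 fold change was -3.92 against -0.02 over all genes tested. All 14 had every tumor below both glands, and 14 did so under each of the other settings as well. Fabp4, a fatty acid carrier of adipocytes, measured 501 and 431 CPM in the glands against 5.23 to 59.3 CPM with a median of 38.3 in the tumors (log2 fold change -3.93, SE 0.64, adjusted p = 0.00531). Pparg, the transcription factor that drives fat cell differentiation, measured 20.8 and 22.4 CPM in the glands against 0.506 to 4.34 CPM with a median of 1.98 in the tumors (log2 fold change -3.42, SE 0.53, adjusted p = 0.00423). Both were stable, and the lower gland was 7.26-fold above the highest tumor for Fabp4.

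Cidec and Plin1, which coat the fat droplet, were at 76.4 and 68.8 CPM and at 81.0 and 63.6 CPM in the glands and at most 8.89 and 10.4 CPM in a tumor. Primary stavudine replicate 3 had no count of either gene, which allows up to 0.0633 CPM at its depth, counting error only. Adipoq, the hormone adiponectin, was at 92.0 and 64.2 CPM in the glands and 0 to 16.8 CPM with a median of 2.78 in the tumors (log2 fold change -4.06, SE 1.01, adjusted p = 0.0293), and its call held neither without gland 1 nor without gland 2. Lep, Pck1 and Cfd also fell, by 3.90, 4.21 and 3.57 on the log2 scale, while Car3 (597 and 477 CPM in the glands, 0.127 to 143 CPM with a median of 20.9 in the tumors) had an adjusted p of 0.0659. The count of 13 became 8 without gland 1, 5 without gland 2, 7 without primary untreated replicate 3 and 6 with library totals alone.

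Called genes with agreeing glands and a mean log2 CPM of at least 1, unnamed loci left out, were ranked by gap below the glands. Krt14 and Krt5, with gaps of 6.69-fold and 4.79-fold, fell under that level. Glycam1, Jchain and Wap had wider gaps, of 55.4-fold, 24.5-fold and 12.5-fold, but their glands differed more than 2-fold. The ranked genes with the widest gap began with the adipocyte list and went beyond it. They included Cidec, Fabp4, Plin1, Tusc5, Fmo1, Pparg, Cdo1, Hsd11b1, Zc3h12d, Ipcef1 and Ablim3. Tusc5 (now Trarg1), a regulator of glucose transporter traffic in fat cells, fell from 35.3 and 29.8 CPM in the glands to 0.759 to 5.93 CPM with a median of 2.30 in the tumors. Hsd11b1, which regenerates active glucocorticoid, measured 39.5 and 26.8 CPM in the glands against 1.01 to 6.22 CPM with a median of 2.90 in the tumors (log2 fold change -3.50, SE 0.50, adjusted p = 0.00285).

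Fmo1, a flavin monooxygenase, was at 26.7 and 25.0 CPM in the glands and at most 5.04 CPM in a tumor. Cdo1, which oxidizes cysteine, was at 64.7 and 58.1 CPM in the glands and at most 13.4 CPM in a tumor. For Ablim3, an actin-binding protein, these values were 16.0 and 17.7 CPM and 3.98 CPM.

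Zc3h12d (chromosome 10, 7832323 to 7870397, GRCm38), of a family of RNA-degrading zinc finger proteins active in leukocytes, had the smallest adjusted p of this group: it measured 12.9 and 24.9 CPM in the glands against 0.652 to 3.0 CPM with a median of 1.43 in the tumors (log2 fold change -3.76, SE 0.28, adjusted p = 0.000316). Ipcef1 measured 16.7 and 13.2 CPM in the glands against 0.591 to 3.10 CPM with a median of 1.72 in the tumors (log2 fold change -3.18, SE 0.30, adjusted p = 0.000588), and its exons overlap those of Oprm1 on the other strand, so reads of the 2 genes could be mixed, the strand setting of the counting not being given. The same holds for Erbb2 with Mien1, Hk1 with Hk1os, Arg2 with Vti1b and Gabra4 with Gabrb1. Tusc5, Hsd11b1, Zc3h12d and Ipcef1 were stable. Recurrent 17-DMAG replicate 1 was the tumor nearest to the glands for 43.2% of the 539 genes below, and recurrent 17-DMAG plus stavudine replicate 2 for 20.8%.

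**Figure D2:**
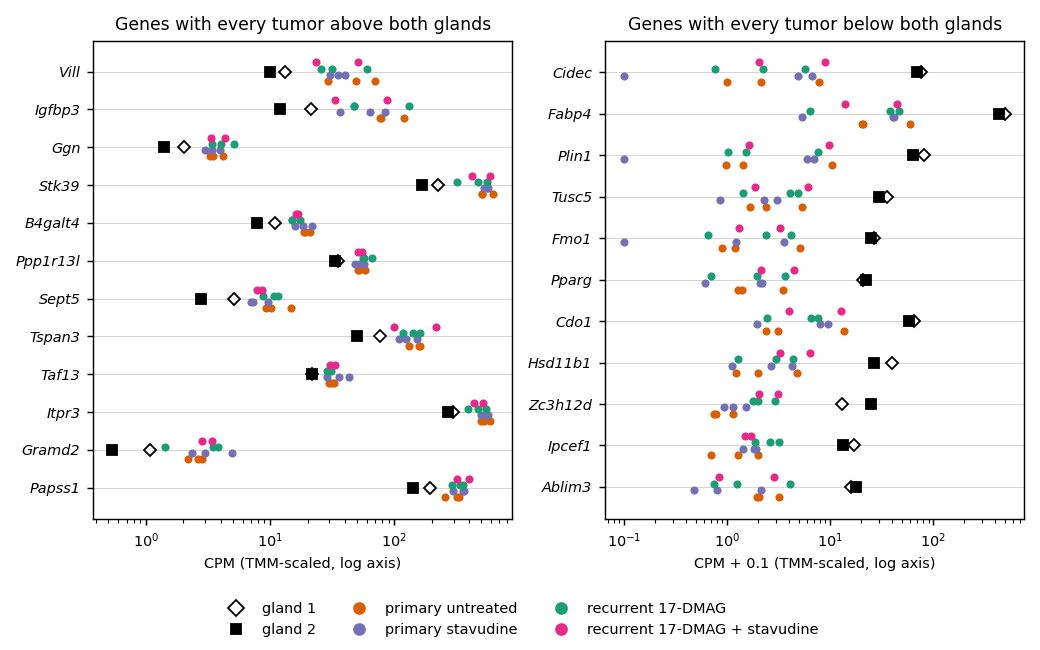
CPM of genes with a wide gap between tumors and glands (rows) in each library, on log axes, with 0.1 added in the right panel. Circles are tumors, colored by group, the open diamond is gland 1 and the filled square gland 2. At left every tumor lies just above both glands, and at right every tumor lies far below both, as for Fabp4 with at most 59.3 CPM in a tumor.

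Myoepithelial and basal genes formed a further group below the glands. Of 16 listed genes, 11 fell, none rose and 5 were not called, with a median log2 fold change of -2.47, and 6 had every tumor below both glands. Of all genes tested 9.39% fell and 7.37% had every tumor below both glands. The paired basal keratins Krt5 and Krt14 were at 29.8 and 55.2 CPM and at 19.8 and 33.8 CPM in the glands. In the tumors Krt5 ran from 0 to 6.18 CPM with a median of 0.491 and Krt14 from 0 to 2.92 CPM with a median of 0.469. Their log2 fold changes were -5.12 (SE 0.92, adjusted p = 0.00773) and -5.28 (SE 0.94, adjusted p = 0.00760), both calls being lost without gland 2.

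Of the listed myoepithelial and basal genes, some fell whichever library was left out. Myh11, smooth muscle myosin, measured 98.5 and 408 CPM in the glands against 1.86 to 27.4 CPM with a median of 8.25 in the tumors (log2 fold change -4.83, SE 0.61, adjusted p = 0.00185). Cnn1, calponin of smooth muscle, measured 12.6 and 56.1 CPM in the glands against 0.590 to 3.03 CPM with a median of 1.15 in the tumors (log2 fold change -4.59, SE 0.50, adjusted p = 0.000864). Col17a1, the hemidesmosome collagen, measured 16.4 and 32.9 CPM in the glands against 0.506 to 3.54 CPM with a median of 1.00 in the tumors (log2 fold change -4.17, SE 0.53, adjusted p = 0.00191). These 3 were stable, although the glands differed more than 4-fold in Myh11 and Cnn1, gland 2 being the higher.

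Acta2, smooth muscle actin, was also lower (log2 fold change -2.74, SE 0.60, adjusted p = 0.0187), but its tumors overlapped the glands: recurrent 17-DMAG replicate 1 at 90.8 CPM and recurrent 17-DMAG plus stavudine replicate 2 at 148 CPM exceeded gland 1 at 87.3 CPM. Trp63, which encodes the basal transcription factor p63, behaved differently, with 18.5 and 12.5 CPM in the glands, 2.2 to 86.4 CPM with a median of 8.46 in the tumors and an adjusted p of 0.635, the top value being recurrent 17-DMAG plus stavudine replicate 2. The 11 calls became 3 without gland 2 and 5 with library totals alone.

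Of 12 pan-luminal genes 1 rose and 1 fell, where 1.81% and 9.39% of all genes tested did, with a median log2 fold change of 0.60. Krt19, a keratin of simple epithelium, fell from 81.3 and 234 CPM in the glands to 0.253 to 41.0 CPM with a median of 1.04 in the tumors (log2 fold change -5.71, SE 1.02, adjusted p = 0.00764). Only recurrent 17-DMAG replicate 1, at 41.0 CPM, came above 10 CPM. The call was lost without gland 2, and DESeq2 gave Krt19 no adjusted p. Krt8 and Krt18, which pair in simple epithelium, were at 245 and 230.3 CPM and at 319 and 204 CPM in the glands. Their tumor ranges were 255 to 637 CPM with a median of 327 and 221 to 749 CPM with a median of 464, with adjusted p-values of 0.251 and 0.155. Epcam, an epithelial adhesion molecule, was the 1 gene of the list that rose (655 and 493 CPM in the glands, 402 to 1236 CPM with a median of 1109 in the tumors, log2 fold change 0.78, SE 0.22, adjusted p = 0.0479), and its call held in 4 of the 13 fits without 1 library. DESeq2 called 4 genes of the list higher and limma voom 3, against 4 without gland 1, 2 without recurrent 17-DMAG replicate 1 and 0 without gland 2 by edgeR.

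Of 10 hormone-sensing luminal genes 2 fell and none rose, where 9.39% of all genes tested fell, and neither was called without gland 2. Wnt4, a paracrine signal of these cells, fell by 2.06 on the log2 scale. Cited1, a transcription cofactor, went from 1.49 and 3.28 CPM in the glands to 0.0802 to 1.11 CPM with a median of 0.179 in the tumors, and both genes had every tumor below both glands. Pgr, the progesterone receptor that induces Wnt4, was at 5.27 and 6.03 CPM in the glands and 0.0802 to 3.15 CPM with a median of 0.489 in the tumors, all below both glands, with an adjusted p of 0.0548. Esr1, the estrogen receptor, was at 43.9 and 149 CPM in the glands and 10.1 to 79.3 CPM with a median of 46.2 in the tumors (adjusted p = 0.169). Among luminal progenitor genes, Elf5, a factor of the alveolar lineage, fell (313 and 1081 CPM in the glands, 144 to 305 CPM with a median of 172 in the tumors, log2 fold change -1.82, SE 0.36, adjusted p = 0.0118) and Sox10 rose (427 and 310.5 CPM in the glands, 407 to 723 CPM with a median of 638 in the tumors, log2 fold change 0.74, SE 0.19, adjusted p = 0.0335). Neither of these calls held without gland 2.

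Genes above the glands were separated by narrow margins. Those named here were called, had agreeing glands and a mean log2 CPM of at least 1, unnamed loci being left out. The 12 of these with the widest gap were Vill, Igfbp3, Ggn, Stk39, B4galt4, Ppp1r13l, Sept5, Tspan3, Taf13, Itpr3, Gramd2 and Papss1. For the first of them, the villin-like gene Vill, the lowest tumor was 1.77-fold above the higher gland. Igfbp3, the main carrier of insulin-like growth factors, was at 21.2 and 11.9 CPM in the glands and 33.5 to 132 CPM with a median of 76.0 in the tumors (log2 fold change 2.12, SE 0.56, adjusted p = 0.0373). Itpr3, a calcium release channel, was at 297 and 272 CPM in the glands and 388 to 589.7 CPM with a median of 515 in the tumors (log2 fold change 0.83, SE 0.16, adjusted p = 0.00915). Papss1, which makes the sulfate donor PAPS, was at 195 and 142 CPM in the glands and 253 to 396 CPM with a median of 332 in the tumors (log2 fold change 0.96, SE 0.18, adjusted p = 0.00830).

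Tspan3, a tetraspanin of the cell membrane, was at 76.2 and 49.8 CPM in the glands and 99.9 to 218 CPM with a median of 142 in the tumors. B4galt4, a galactosyltransferase, was at 10.9 and 7.81 CPM in the glands and 15.1 to 21.8 CPM with a median of 17.3 in the tumors. Taf13, a subunit of the general transcription factor TFIID, was at 21.7 and 21.7 CPM in the glands and 28.5 to 42.9 CPM with a median of 30.7 in the tumors. Across the 12 genes the log2 fold change ran from 0.56 to 2.12, and across the genes named as lying widest below the glands from -4.31 to -3.18.

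Ppp1r13l (chromosome 7, 19359724 to 19378540, GRCm38), which encodes the p53-binding protein iASPP, was the 1 stable gene of these 12. It was at 35.5 and 33.5 CPM in the glands and 48.4 to 66.3 CPM with a median of 54.7 in the tumors (log2 fold change 0.66, SE 0.12, adjusted p = 0.00685). The other 11 lost their call without gland 2 and kept it without gland 1. For Ggn and Sept5, exons overlap those of Spred3 on the other strand and of Gp1bb on the same strand, so their reads may be shared.

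Of 13 genes for ErbB receptors and ligands 2 rose and 1 fell, where 1.81% and 9.39% of all genes tested did. Erbb2 itself was not called. It was at 11207 and 12894 CPM in the glands and 3698 to 19072 CPM with a median of 9673 in the tumors (log2 fold change -0.23, SE 0.36, adjusted p = 0.685), and reads of the rat transgene, which glands and tumors both carry, may count to it. Its sign turned to 0.19 with library totals alone. Tgfa, a ligand of the EGF receptor, was at 20.8 and 7.07 CPM in the glands and 36.2 to 119 CPM with a median of 62.3 in the tumors (log2 fold change 2.25, SE 0.59, adjusted p = 0.0371). Egfr, the receptor it binds, was at 111 and 86.9 CPM in the glands and 122 to 191 CPM with a median of 154 in the tumors (log2 fold change 0.61, SE 0.17, adjusted p = 0.0411).

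Both had every tumor above both glands, by 1.74-fold and 1.10-fold at the nearest, and both lost their call without gland 2. Nrg4, a ligand of ErbB4 secreted by fat tissue, went the other way, from 12.3 and 10.4 CPM in the glands to 1.5 to 3.70 CPM with a median of 2.37 in the tumors (log2 fold change -2.27, SE 0.26, adjusted p = 0.00103), and was stable. Exons of Nrg4 overlap those of Fbxo22 on the other strand. The adipocyte list summed to 1994 and 1587 CPM in the glands and 19.4 to 333 CPM in the tumors, and its part in the fall of Nrg4 was not tested.

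The negative feedback genes of the MAPK cascade were the list with the most rises. Of 15 genes, 6 rose, none fell and 7 had every tumor above both glands, with a median log2 fold change of 1.25. Of all genes tested 1.81% rose and 4.14% had every tumor above both glands. Spry2 and Spry4, Sprouty proteins that restrain signaling below receptor kinases, were at 46.8 and 25.4 CPM and at 33.4 and 21.7 CPM in the glands. In the tumors Spry2 ran from 57.9 to 117 CPM with a median of 92.5 and Spry4 from 36.8 to 86.8 CPM with a median of 65.9, with log2 fold changes of 1.35 (SE 0.29, adjusted p = 0.0166) and 1.28 (SE 0.33, adjusted p = 0.0333).

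The related Spred1 was stable, at 190.5 and 82.5 CPM in the glands and 236 to 345 CPM with a median of 289.7 in the tumors (log2 fold change 1.08, SE 0.25, adjusted p = 0.0223). Spred2 rose by less, from 36.2 and 30.7 CPM to 42.9 to 56.1 CPM with a median of 48.7 (log2 fold change 0.56, SE 0.11, adjusted p = 0.0138). Etv4, an ETS factor induced by the cascade, was at 20.6 and 4.39 CPM in the glands and 22.7 to 59.8 CPM with a median of 47.3 in the tumors (log2 fold change 1.82, SE 0.50, adjusted p = 0.0419), and Ier3, an early response gene, rose by 1.70 (SE 0.43) on the log2 scale. Dusp6, the ERK phosphatase, was higher in 10 of 11 tumors than in either gland, at 150.0 to 928 CPM with a median of 580.0 against 212 and 45.2 CPM, with an adjusted p of 0.0647. Its exception was recurrent 17-DMAG replicate 1.

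Gland 1 exceeded gland 2 more than 4-fold in 4 of the 15 genes. The 6 calls became 1 without gland 2, 11 without gland 1, 3 without primary stavudine replicate 2, 3 without primary stavudine replicate 3, 2 without the 3 muscle-rich tumors, a setting chosen after the data had been seen, 0 with library totals alone, and 10 by DESeq2. At least 7 genes of the list had every tumor above both glands in each of these, against 4 with libraries scaled to the pan-luminal genes, where 4 were called.

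**Figure D3:**
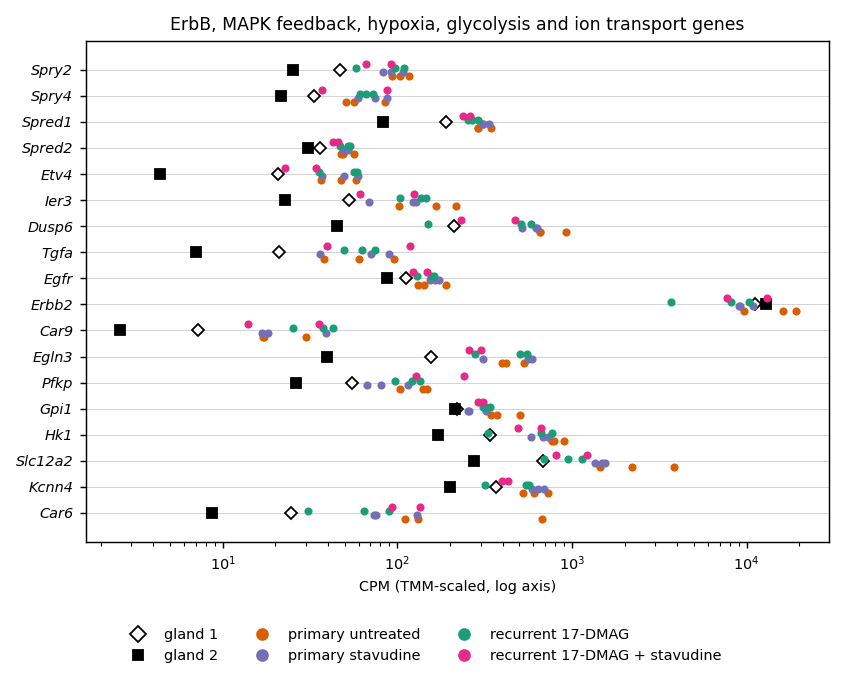
CPM of 18 ErbB, MAPK feedback, hypoxia, glycolysis and ion transport genes (rows) in each library, on a log axis. Circles are tumors, colored by group, the open diamond is gland 1 and the filled square gland 2. Tumors lie to the right of both glands for Spry2, Tgfa, Car9 and Egln3, gland 1 lies between gland 2 and most tumors in most rows, and Erbb2 overlaps.

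Of 20 hypoxia and glycolysis genes, 5 rose and 1 fell, where 1.81% and 9.39% of all genes tested did, with a median log2 fold change of 0.54. Car9, a carbonic anhydrase of the cell surface and a standard marker of hypoxia, was at 7.21 and 2.57 CPM in the glands and 13.9 to 42.9 CPM with a median of 25.3 in the tumors (log2 fold change 2.41, SE 0.56, adjusted p = 0.0235). Egln3, a prolyl hydroxylase that marks HIF for degradation and is itself a HIF target, was at 155 and 39.4 CPM in the glands and 257 to 588 CPM with a median of 420.2 in the tumors (log2 fold change 2.11, SE 0.49, adjusted p = 0.0242). For both, every tumor was above both glands, by 1.92-fold and 1.66-fold at the nearest.

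The HIF factors bind DNA at the core letters ACGTG, so the bases before the transcript starts of Car9 and Egln3 are shown, with that core in capitals on either strand (RefSeq, GRCm38.p6, 250 bases ending just before the start, 5′ to 3′ along the gene). The Car9 stretch is chr4:43506776-43507025 on the plus strand and that of Egln3 chr12:54203875-54204124 on the minus strand.
Car9: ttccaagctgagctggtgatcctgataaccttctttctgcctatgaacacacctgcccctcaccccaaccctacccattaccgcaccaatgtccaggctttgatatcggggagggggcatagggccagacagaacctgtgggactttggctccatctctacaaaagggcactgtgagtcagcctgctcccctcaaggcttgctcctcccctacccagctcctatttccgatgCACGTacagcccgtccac
Egln3: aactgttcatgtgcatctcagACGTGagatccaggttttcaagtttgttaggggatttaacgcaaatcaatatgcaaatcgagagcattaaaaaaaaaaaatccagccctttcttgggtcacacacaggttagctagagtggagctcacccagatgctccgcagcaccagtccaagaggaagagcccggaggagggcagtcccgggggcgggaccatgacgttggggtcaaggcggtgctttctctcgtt
In Car9 the core reads on the opposite strand, 18 to 14 bases before the start, and in Egln3 it lies 229 to 225 bases before it. ACGTG was found on either strand in 13 of the 20 list genes (65.0%) and in 18.5% of all 27025 genes with a sequence in the table, and of the 5 list genes that rose only Car9 and Egln3 held it. A match describes letters and not binding.

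The other 3 rises were glycolytic enzymes. Pfkp, a phosphofructokinase, was at 55.3 and 26.4 CPM in the glands and 66.7 to 239 CPM with a median of 122 in the tumors (log2 fold change 1.56, SE 0.35, adjusted p = 0.0196), and its exons overlap those of Pitrm1 on the other strand. Hk1, the first kinase of the path, was at 341 and 170.0 CPM in the glands and 330.4 to 896 CPM with a median of 681 in the tumors (log2 fold change 1.38, SE 0.34, adjusted p = 0.0280), with recurrent 17-DMAG replicate 1 below gland 1. Gpi1 rose by 0.58 (SE 0.16, adjusted p = 0.0401). Ndrg1, another hypoxia-induced gene, fell (175 and 967 CPM in the glands, 23.9 to 465 CPM with a median of 46.0 in the tumors, log2 fold change -2.94, SE 0.70, adjusted p = 0.0248), but gland 1 lay inside the tumor range, and the call was lost without gland 2, without primary stavudine replicate 1, without the 3 muscle-rich tumors, with library totals alone, with a model of 2 groups and by limma voom. Vegfa and Slc2a1, classical HIF targets, were at 75.6 and 248 CPM and at 62.1 and 200.4 CPM in the glands and 59.2 to 324 CPM with a median of 127 and 53.5 to 159.9 CPM with a median of 103 in the tumors, neither called. The 5 rises became 1 without gland 2, 3 without primary untreated replicate 3, 1 without the 3 muscle-rich tumors, 3 with scaling to the pan-luminal genes and 2 with library totals alone, and 4 genes of the list were called lower without gland 1.

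Stk39 and Slc12a2, a kinase and its substrate in ion transport, both rose. Stk39, the kinase SPAK that activates the sodium, potassium and chloride cotransporter NKCC1, was at 223 and 167 CPM in the glands and 318 to 626 CPM with a median of 531 in the tumors (log2 fold change 1.39, SE 0.23, adjusted p = 0.00586). Slc12a2, which encodes NKCC1, was at 686 and 274 CPM in the glands and 687 to 3847 CPM with a median of 1353 in the tumors (log2 fold change 1.54, SE 0.43, adjusted p = 0.0445), the lowest tumor, recurrent 17-DMAG replicate 1, being level with gland 1. Kcnn4, a calcium-gated potassium channel, and Car6, a secreted carbonic anhydrase, rose by 0.94 (SE 0.27) and 2.83 (SE 0.80) on the log2 scale. Slc34a2 and Atp2b2, which carry phosphate and calcium into milk, fell (-5.28 and -9.74), gland 2 standing at 4479 and 1662 CPM against 72.2 and 4.06 CPM in gland 1. The tumors lay on both sides of gland 1 for Slc34a2, at 26.0 to 158 CPM with a median of 46.7. For Atp2b2 they lay below both glands, at 0.245 to 1.96 CPM with a median of 0.973. Both calls were lost without gland 2. The 3 rises of the list of 12 became 0 without gland 2, 5 without gland 1, 1 without primary untreated replicate 3 or recurrent 17-DMAG plus stavudine replicate 2, and 0 without primary untreated replicate 2, any 1 stavudine primary tumor, recurrent 17-DMAG replicate 2 or 3, or recurrent 17-DMAG plus stavudine replicate 1.

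Arg1, the cytosolic arginase, rose from 24.8 and 11.2 CPM in the glands to 12.6 to 298 CPM with a median of 130.3 in the tumors (log2 fold change 2.52, SE 0.57, adjusted p = 0.0203), with 1 tumor, recurrent 17-DMAG plus stavudine replicate 2, below gland 1, and the call was lost without gland 2, with library totals alone and with a model of 2 groups. Its mitochondrial paralog Arg2 and Odc1, the first enzyme of polyamine synthesis, were called lower, by 3.62 and 3.36 on the log2 scale. These 2 calls also rested on gland 2, at 66.2 and 398 CPM, and were lost without it, gland 1 at 4.53 and 25.0 CPM lying within the tumor ranges of 1.24 to 12.6 CPM with a median of 2.25 and 11.5 to 42.4 CPM with a median of 19.5.

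Cell division genes did not separate the tumors from both glands. Of 30 mitosis genes none was called by edgeR, 13 had an unadjusted p under 0.05, DESeq2 called 5 higher and limma voom none, and the median log2 fold change was 0.81. Mki67, the proliferation marker Ki67, was at 305 and 252 CPM in the glands and 83.8 to 523 CPM with a median of 423 in the tumors (log2 fold change 0.35, SE 0.27, adjusted p = 0.396). Both recurrent tumors given 17-DMAG plus stavudine, at 198 and 83.8 CPM, lay under both glands, and the other tumors lay above both. In the sum of the mitosis list the tumor median was 1420 CPM. The same 2 tumors, at 768 and 338 CPM, were the only ones with a sum below gland 1. The list summed to 995 and 572 CPM in the glands and 338 to 1837 CPM in the tumors, and without gland 1 edgeR called 18 of the 30 higher, and without recurrent 17-DMAG plus stavudine replicate 2 it called 8. Among 28 DNA replication genes 3 rose, where 1.81% of all genes tested did. They were Rrm2, a subunit of ribonucleotide reductase, which was stable (21.2 and 25.2 CPM in the glands, 31.1 to 50.6 CPM with a median of 39.6 in the tumors, log2 fold change 0.77, SE 0.16, adjusted p = 0.0158), Tyms, thymidylate synthase, and Uhrf1, which recruits the maintenance DNA methyltransferase.

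The glands disagreed more than 4-fold on 1911 genes, and these are described apart. Gland 1 was the higher on 1237 of them and gland 2 on 674, and with library totals alone these numbers became 4061 and 272. Of the genes high in gland 2, 322 (47.8%) were called, all lower in tumors, and the tumor median was nearer to gland 1 for 96.7%. Of those high in gland 1, 230 (18.6%) were called, 222 lower and 8 higher, and the tumor median was nearer to gland 1 for 59.3% and to gland 2 for 40.7%. Among the 11675 genes with glands within 2-fold, 7.65% were called.

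**Figure D4:**
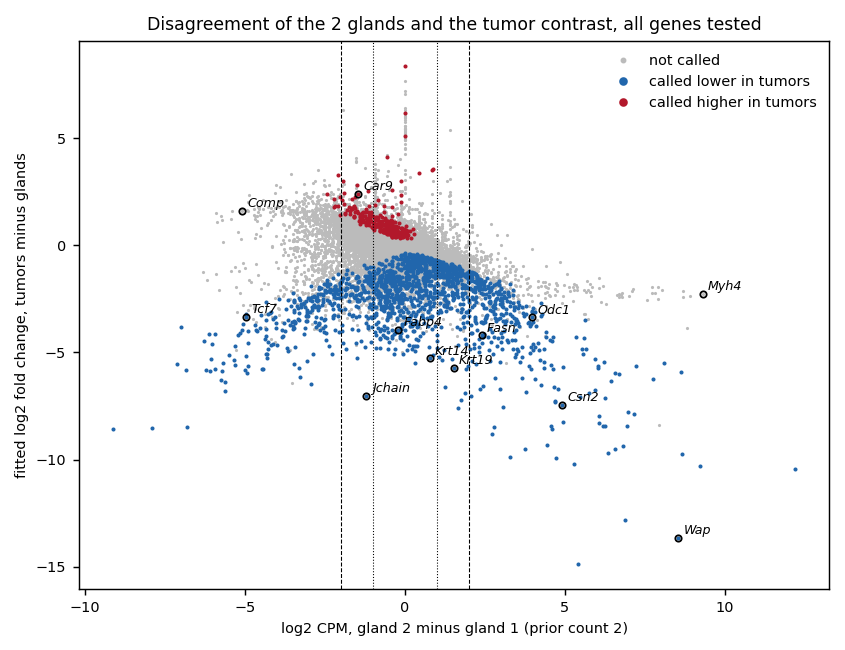
Each point is 1 of the 17135 genes tested, with the log2 ratio of gland 2 to gland 1 across and the fitted log2 fold change of tumors against glands upward. Dotted and dashed lines mark 2-fold and 4-fold differences between glands. Blue points, called lower, spread far to both sides, milk genes such as Wap to the right and T cell genes such as Tcf7 to the left, and 230 of the 310 red points, called higher, have glands within 2-fold, as do 11675 of all 17135 genes.

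Milk genes were high in gland 2. All 12 milk protein genes were more than 4-fold higher in gland 2, and 10 were called lower in tumors. Csn1s2b, a casein, was at 6.59 CPM in gland 1 and 31480 CPM in gland 2, and its tumors, at 1.76 to 43.4 CPM with a median of 4.87, lay on both sides of gland 1. Wap, the whey acidic protein, was at 317 and 119378 CPM in the glands and 0.443 to 25.4 CPM with a median of 2.10 in the tumors, below both. Glycam1, a mucin-like milk protein, was at 949.6 and 40802 CPM in the glands and 0 to 17.1 CPM with a median of 0.223 in the tumors, and was stable.

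The caseins Csn2 and Csn1s2a were at 7532 and 229562 CPM and at 6027 and 155289 CPM in the glands and, in the tumors, at 17.0 to 5569 CPM with a median of 158 and 17.1 to 3652 CPM with a median of 163. Csn3, kappa-casein, was at 6829 and 58574 CPM in the glands and 2946 to 13986 CPM with a median of 7093 in the tumors, which lay on both sides of gland 1, and its call turned to a log2 fold change of 0.18 (adjusted p = 0.904) without gland 2. Lalba, the lactose synthase subunit alpha-lactalbumin, was at 441 and 6894 CPM in the glands and 15.9 to 1327 CPM with a median of 674 in the tumors, uncalled, and its log2 fold change of -2.58 likewise turned to 0.56 without gland 2. Milk protein transcripts were present in every tumor, at 7694 to 26953 CPM in sum. The 10 calls became 2 without gland 2, 6 without primary stavudine replicate 1, 5 without the 3 muscle-rich tumors, 6 with library totals alone, 4 by DESeq2, which gave no adjusted p for the other 8, and 3 by limma voom.

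Casein genes respond to prolactin through STAT5, whose sites have the letters TTCNNNGAA. The bases before the starts of 2 caseins that gland 2 raised are shown with that motif in capitals (RefSeq, GRCm38.p6, 5′ to 3′ along the gene), Csn2 from chr5:87699426-87699675 on the minus strand and Csn1s1 from chr5:87665958-87666207 on the plus strand.
Csn2: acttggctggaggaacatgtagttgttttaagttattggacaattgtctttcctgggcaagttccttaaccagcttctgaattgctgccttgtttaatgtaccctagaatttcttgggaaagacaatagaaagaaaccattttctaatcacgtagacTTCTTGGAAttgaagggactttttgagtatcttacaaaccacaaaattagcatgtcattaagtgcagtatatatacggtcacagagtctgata
Csn1s1: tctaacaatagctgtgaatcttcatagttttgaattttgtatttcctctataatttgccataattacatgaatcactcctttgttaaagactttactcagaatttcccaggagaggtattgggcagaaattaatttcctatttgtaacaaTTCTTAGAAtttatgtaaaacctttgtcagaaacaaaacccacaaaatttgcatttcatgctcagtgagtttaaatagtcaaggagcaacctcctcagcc
The motif, the same on both strands, lies 93 to 85 bases before the Csn2 start and 100 to 92 bases before that of Csn1s1. It occurred in 3 of 8 milk protein genes with a sequence (37.5%) and in 8.13% of all 27025 genes. Csn1s1 was at 5955 and 122719 CPM in the glands and 80.8 to 7278 CPM with a median of 606 in the tumors, 2 of which, primary untreated replicate 1 and recurrent 17-DMAG replicate 1, exceeded gland 1.

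For most enzymes of fat synthesis the tumors lay below gland 1 as well as gland 2. Of 18 milk lipid genes 14 fell, none rose and 11 had every tumor below both glands, and 9 were still called lower without gland 2. Fasn, fatty acid synthase, was at 3913 and 20603 CPM in the glands and 287 to 1165 CPM with a median of 601 in the tumors (log2 fold change -4.21, SE 0.48, adjusted p = 0.00103). Acaca, which makes its malonyl-CoA substrate, was at 997 and 6905 CPM in the glands and 154 to 278 CPM with a median of 195 in the tumors (log2 fold change -4.30, SE 0.39, adjusted p = 0.000537). Elovl6, a fatty acid elongase on which the glands agreed within 2-fold, was at 332 and 526 CPM in the glands and 42.0 to 90.4 CPM with a median of 66.7 in the tumors (log2 fold change -2.72, SE 0.24, adjusted p = 0.000537). These 3 and Acly, which supplies acetyl-CoA, were stable. Srebf1, which encodes the regulator SREBP1, was at 975 and 587 CPM in the glands and 571 to 1732 CPM with a median of 1488 in the tumors, uncalled. The adipocyte list, which the glands also held at higher levels, moved with these genes, and its part was not tested.

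Lymphoid genes were high in gland 1. All 17 T cell genes and all 8 B cell genes were more than 4-fold higher in gland 1, and 15 and 8 of them were called lower in tumors. Cd3e, of the T cell receptor complex, was at 23.4 and 1.28 CPM in the glands and 0.367 to 1.83 CPM with a median of 1.29 in the tumors, which overlapped gland 2. Without gland 1, 1 of 17 T cell genes and 1 of 8 B cell genes were called lower, limma voom with all libraries called 3 and 2, and without the 3 muscle-rich tumors edgeR called 5 T cell genes. Chemokines of lymph node stroma followed the same pattern, Ccl19 at 13.7 and 0.214 CPM and Cxcl13 at 16.1 and 0.0714 CPM in the glands and at most 0.370 and 1.96 CPM in a tumor, the log2 fold change of Cxcl13 turning to 1.27 without gland 1.

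Plasma cell genes differed from the T and B cell genes, since both glands held them. Every tumor lay below both glands for 4 of 6 plasma cell genes, and likewise for 4 of 7 NK cell genes. Jchain, which joins secreted IgA and IgM, was at 343 and 149 CPM in the glands and 0.335 to 6.03 CPM with a median of 1.55 in the tumors, so that the lower gland was 24.5-fold above the highest tumor (log2 fold change -7.02, SE 0.66, adjusted p = 0.000537), and it was stable. Of 6 plasma cell genes 5 fell, and this count stayed between 4 and 5 without any 1 library. Mzb1, a chaperone of antibody assembly, was at 6.75 and 2.36 CPM in the glands and 0.0391 to 0.306 CPM with a median of 0.131 in the tumors, and was stable too. Derl3 was the 1 gene not called, at 14.6 and 28.0 CPM in the glands and 5.09 to 72.0 CPM with a median of 17.1 in the tumors.

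**Figure D5:**
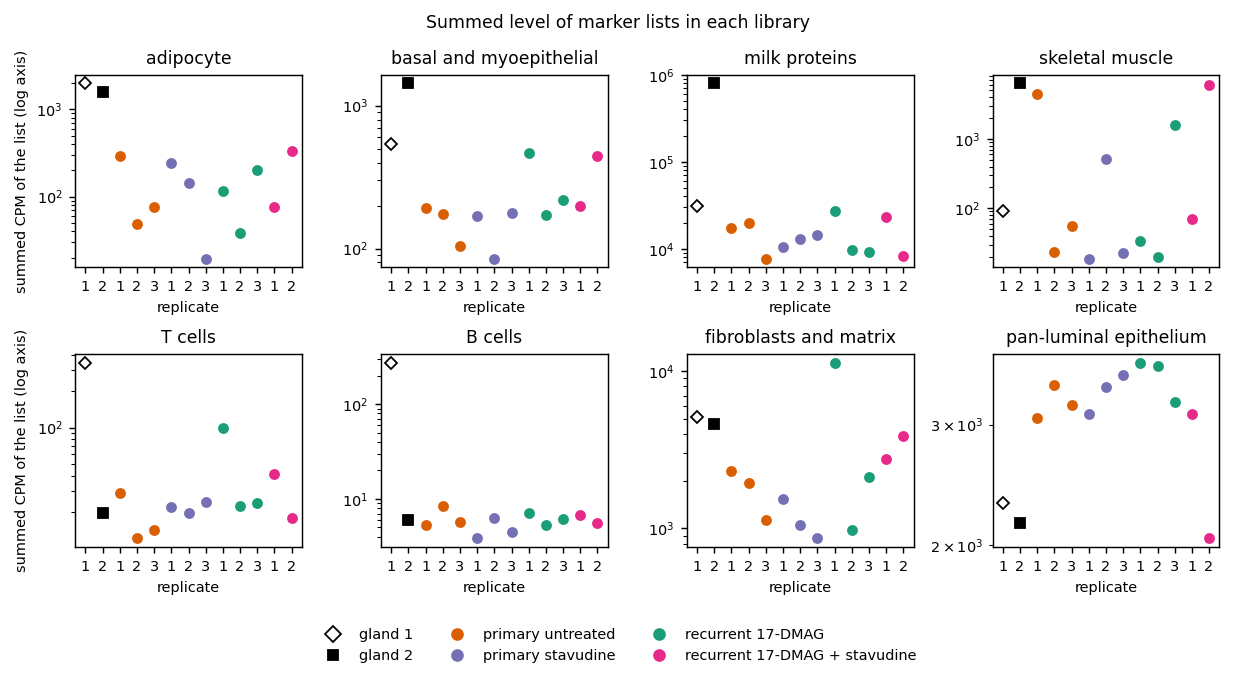
Summed CPM of 8 marker lists (panels, log axes) in each library, ordered as gland 1, gland 2 and the tumors by group and replicate. Both glands exceed every tumor in the adipocyte panel, gland 1 alone is high for T and B cells, gland 2 alone for milk proteins, and gland 2 with 3 tumors for skeletal muscle.

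Skeletal muscle genes also differed between glands without a call between tumors and glands. All 15 were more than 4-fold higher in gland 2, and edgeR and limma voom called none, with 0 genes at an unadjusted p under 0.05 by edgeR. DESeq2 gave an adjusted p for 1 of the 15 and did not call it. Myh4, a fast myosin, was at 1.25 and 824 CPM in the glands and at 417, 238 and 658 CPM in the 3 muscle-rich tumors, against at most 68.6 CPM in the other 8.

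Some genes high in gland 1 had tumor levels around it. By the naming rule these were Gprasp2, Comp, Gabra4, Eya1 and Susd5. The other gene of the 6, the T cell factor Tcf7, was called lower in tumors. It was at 36.2 and 1.11 CPM in the glands and 0.805 to 3.40 CPM in the tumors, which lay around gland 2. Comp, a cartilage and matrix protein, was at 102 and 2.93 CPM in the glands and 31.7 to 527 CPM with a median of 126 in the tumors. Eya1, a developmental transcription cofactor, was at 38.7 and 1.46 CPM in the glands and 2.01 to 169 CPM with a median of 38.7 in the tumors. Kit, a receptor kinase of luminal progenitors, had tumors on both sides of gland 1 at higher levels. It was at 527 and 126 CPM in the glands and 417 to 1129 CPM with a median of 837 in the tumors. Gland 1 lay inside the tumor range for these 3 genes, and none was called.

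Differences among the 4 tumor groups were not detectable gene by gene at this number of tumors by the reported test. An F test over the 4 tumor group means called 0 genes by edgeR, with a smallest adjusted p of 0.174 and an unadjusted p under 0.05 for 1040 genes (6.07%). DESeq2 called 229 genes and limma voom 0, and without recurrent 17-DMAG plus stavudine replicate 1 edgeR called 12. Of the 725 genes separated from agreeing glands, 36 (4.97%) had an unadjusted p under 0.05. Among genes with glands within 2-fold, 532 were higher and 488 lower than both glands in all tumors but recurrent 17-DMAG replicate 1, whereas the other tumors were the sole exception for 7 to 142 higher and 6 to 100 lower genes. Without that tumor 541 genes stood above and 987 below under the combined rule, against 186 and 539 with it.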

How the data were processed

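RNA was sequenced from 11 mammary tumors and 2 cancer-free mammary glands. The deposited file held counts of reads per gene, which the authors made from total RNA depleted of ribosomal RNA (stranded libraries) with bcl2fastq 2.20, STAR and featureCounts of Subread 1.6.2, on GRCm38 with the UCSC annotation. The strand setting of the counting is not given in the sources used here. Milk protein or lymphoid RNA leaves fewer reads for other genes of a library.

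Counts were tested with edgeR 4.0.16 in R 4.3.3: genes with low counts were removed (17135 of 24421 stayed), library sizes were scaled by TMM, the 5 group means were fitted with the quasi-likelihood model, and the mean over the 11 tumors was set against the mean of the 2 glands. P-values were adjusted by the Benjamini-Hochberg method over all genes tested, and an adjusted p under 0.05 counted as a call. CPM of both glands within 2-fold (prior count of 2) counted as agreement. DESeq2 1.42.0 and limma 3.58.1 (voom) were alternatives (genes to which DESeq2 gave no adjusted p stayed without one), as were other scalings, filters and models, a replicate block and the removal of each library. Totals per library were 39921388 to 56887708 counts, and the floor of 3 counts covers counting error only.

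Members and gene lists were chosen with earlier results of these data known. Named genes were the 12 in each direction with the widest gap between the nearest tumor and the nearest gland, among called genes with agreeing glands, every tumor outside both and a mean log2 CPM of at least 1, unnamed loci left out, the 6 largest ratios between glands in each direction, 17 fixed genes and members of 39 lists. A few genes that this rule covers are not reported here. Of 24421 symbols 24313 matched a symbol or synonym of the RefSeq gene table, which gave the coordinates of named genes. Promoter sequences were those of RefSeq (GRCm38.p6). Exon overlaps came from GENCODE mouse release 21.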

Additional observations from a re-analysis of the deposited data

How the results depend on the processing

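The number of genes called between tumors and glands was 1919, against 525 with library totals alone, 3426 by DESeq2, 737 without the 3 muscle-rich tumors (a setting chosen after seeing the data) and 564 to 4333 when any 1 library was left out. Genes with every tumor outside both glands numbered 1971, against 1167 with library totals alone and 1989 to 8754 without any 1 library, since fewer libraries make separation easier. The 725 genes that also had a call and agreeing glands became 119 with library totals alone, 310 without the 3 muscle-rich tumors and 484 to 1528 without any 1 tumor, with no value when a gland was left out. Of the 725, DESeq2 still called 96.4%, limma voom 88.0%, scaling to the pan-luminal genes 59.6%, library totals alone 17.2% and the fit without gland 2 15.2%. Calls among the 4 tumor groups went from 0 to 229 by DESeq2 and 0 to 12 without any 1 library, and the 2-group model gives none. The 1911 genes on which the glands differed more than 4-fold became 4333 with library totals alone. The log2 fold change turned in sign with library totals alone for Erbb2 (0.19), Slc2a1 (0.30), Vegfa (0.39) and Derl3 (0.36), with the 2-group model for Trp63 (0.01), without gland 2 for Esr1 (0.12), Csn3 (0.18), Lalba (0.56), Slc2a1 (0.75), Vegfa (0.85) and Derl3 (0.42), and without gland 1 for Cxcl13 (1.27). Over the fits without any 1 library the lowest values were -1.68 for Esr1, -2.96 for Csn3, -3.45 for Lalba, -0.99 for Slc2a1, -0.91 for Vegfa and -0.56 for Derl3, and -6.44 for Cxcl13. The causes were not tested. With the replicate number as a block (replicate block), 380 genes were called and 175 met the combined rule. Deviations of same-numbered samples from their group means had r of -0.289 to 0.217 (median -0.035) over 23 pairs. Of these pairs 3 exceeded 0.1, and 2 of 13 libraries correlated best with their own number. In groups of 2 or 3 samples such deviations are tied to each other, so this check cannot exclude a shared mouse or batch. Milk genes have no value in the fit that leaves them out. When 1 gland is left out, the lone gland is assumed to vary like the tumor groups.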

Other observations

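Stromal and vascular lists gave few calls with all libraries and more without recurrent 17-DMAG replicate 1. Of 17 endothelial genes 5 fell (median log2 fold change -1.15), and 15 were called lower without that tumor. The list summed to 599 and 616 CPM in the glands and 143 to 606 CPM (median 222) in the tumors, the top value being that tumor. Of 26 fibroblast and matrix genes 1 fell, and 16 were called lower without that tumor, its sum of 11317 CPM exceeding the glands at 5121 and 4609 CPM. Of 5 pericyte genes none was called by edgeR, DESeq2 or limma voom (1 at an unadjusted p under 0.05), with sums of 307 and 241 CPM in the glands and 249 to 439 CPM in the tumors. Lymphatic endothelium had 2 of 5 genes lower, and none without gland 1 or without gland 2.

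Of 14 macrophage genes 1 fell, and the list summed to 892 and 351 CPM in the glands and 245 to 1077 CPM in the tumors. Of 8 dendritic cell genes 6 fell and of 7 NK cell genes 5, with 0 and 1 called without gland 1, and 3 of 8 neutrophil genes fell, with 1 called lower without either gland. All 8 mast cell genes went uncalled by edgeR, 6 of them at an unadjusted p under 0.05, with 1 called lower by DESeq2, which gave no adjusted p for 2, and 6 by limma voom. Ptprc, which encodes the pan-leukocyte phosphatase CD45, was at 215 and 33.8 CPM in the glands and 18.0 to 58.8 CPM with a median of 23.0 in the tumors (adjusted p = 0.0117).

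Stress and growth factor lists gave few calls. Of 17 interferon response genes edgeR called none (9 at an unadjusted p under 0.05) and DESeq2 called 4 lower. Of 13 heat shock genes 1 fell, and DESeq2 called 4 higher. Of 20 ribosome biogenesis genes edgeR called none (6 at an unadjusted p under 0.05), against 1 higher and 4 lower by DESeq2. Of 15 cell cycle inhibitors and p53 targets edgeR called none (2 at an unadjusted p under 0.05) and DESeq2 1, and of 10 immediate early genes none (2) and 1. Of 19 histone genes none was called by edgeR (4 at an unadjusted p under 0.05) and 2 by DESeq2, with 8 called higher without gland 1. In the IGF list of 10, Igfbp3 rose and Igf1 fell, 3 of 13 WNT antagonists and targets fell, and 2 of 16 genes of the integrated stress response fell, none of these 2 without gland 2. Of 5 Schwann cell and 4 keratinocyte genes edgeR called none (1 at an unadjusted p under 0.05 in each list), and DESeq2 called 1 Schwann cell gene higher.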
